A study of Mus musculus with 30 samples.

Results

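The BCL2 family genes followed here were Bcl2, Bcl2l1, Mcl1, Bcl2l11, Bbc3, Pmaip1, Bax and Bak1, chosen by gene symbol. Of these 8 genes, 7 had a row of their own among the 19938 genes of the array table, each with 1 row. Bax was not listed there under its symbol and was not analysed here. RNA of naive (TN) and of memory (TMem) CD8+ T cells was hybridised to 30 mouse gene arrays in 10 groups of 3, described as biological repeats. The groups were TN alone and TMem alone at 0 h without stimulation, and TN alone, TN mix, TMem alone and TMem mix at 18 h and at 96 h of stimulation. Stimulation was with antibodies to CD3 and CD28 together with IL-2, and in the mix groups TN and TMem cells shared a culture and were separated by flow cytometry before RNA was taken. All cells came from the spleen of adult C57BL/6 mice of 6 to 12 weeks that carried the Pmel-1 T cell receptor transgene, and all are labelled female. The TN cells carried the Ly5.1 allele and the TMem cells Ly5.2. The TMem cells had been differentiated in vitro, so they stand for memory cells made in culture and not for memory cells formed in an animal. The title of the series names the question, which is how memory cells change the differentiation of naive cells cultured with them.

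Proteins of the BCL2 family decide whether the outer mitochondrial membrane stays intact. The prosurvival members BCL2, BCL-XL (from Bcl2l1) and MCL1 hold the effectors BAX and BAK (from Bak1) and the BH3-only proteins in check. The BH3-only proteins BIM (from Bcl2l11), PUMA (from Bbc3) and NOXA (from Pmaip1) bind the prosurvival members, and free effectors open the membrane, which releases cytochrome c. In T cells BCL2 is known for survival of resting cells under IL-7, BCL-XL for survival after costimulation through CD28, MCL1 for survival at most stages, and BIM for the death of T cells when cytokines are withdrawn and when a response contracts.

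The values are log2 probe set values as deposited, so a difference of 1 is a 2-fold difference. Levels are compared between groups for 1 gene at a time, since the probes of different genes cannot be set against each other. No detection calls were used here. A group mean under the lower quartile of its arrays, which was 5.63 to 5.74, is called near background, and no group mean of the 7 genes fell under it. Groups were compared with limma over all 19938 genes, and a gene was called at a Benjamini-Hochberg adjusted p under 0.05. A difference is the value of the group named first less that of the other, with the standard error (SE) of the fit, and every group has 3 arrays. In these bulk samples fewer cells of a type and less RNA per cell cannot be told apart.

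The stretches before the annotated start sites of 3 of the genes are shown. The early response of Bcl2 and Bcl2l11 differed most between the 2 cell types, and Bcl2l1 was the only gene of the 7 called with mixing in TN cells. They are from RefSeq, build GRCm38.p6, and hold the 250 bases before the start site. For Bcl2l1 the most upstream of 3 listed starts is shown, and for Bcl2l11 the first of 2. Capitals mark matches, on either strand, to GGGCGG (GC box), GTAAACA (a FOXO site), CACGTG (E-box), TGANTCA (AP-1 site) and TTCNNNGAA (a STAT site).
Bcl2, chr1:106714291-106714540, minus strand: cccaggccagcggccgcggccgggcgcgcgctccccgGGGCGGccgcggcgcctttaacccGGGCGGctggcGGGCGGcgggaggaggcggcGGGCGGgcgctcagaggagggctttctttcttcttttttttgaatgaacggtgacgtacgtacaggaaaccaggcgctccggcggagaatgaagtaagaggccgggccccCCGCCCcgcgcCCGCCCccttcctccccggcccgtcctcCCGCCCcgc
Bcl2l1, chr2:152831729-152831978, minus strand: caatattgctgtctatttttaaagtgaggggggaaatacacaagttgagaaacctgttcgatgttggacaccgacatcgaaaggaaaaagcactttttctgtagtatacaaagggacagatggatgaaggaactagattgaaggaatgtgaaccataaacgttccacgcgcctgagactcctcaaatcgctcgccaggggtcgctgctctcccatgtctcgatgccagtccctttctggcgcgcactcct
Bcl2l11, chr2:128125788-128126037, plus strand: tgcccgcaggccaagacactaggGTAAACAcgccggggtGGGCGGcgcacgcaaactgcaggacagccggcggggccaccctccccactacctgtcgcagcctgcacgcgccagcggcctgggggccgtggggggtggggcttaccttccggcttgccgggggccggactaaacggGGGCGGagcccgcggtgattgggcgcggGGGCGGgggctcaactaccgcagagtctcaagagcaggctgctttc
The Bcl2 stretch held 7 GC boxes, and GC boxes were found in 32.7% of all 32851 stretches of this length. The Bcl2l11 stretch held 3 GC boxes and 1 FOXO site, a motif found in 3.17% of all stretches. None of the 5 motifs was found in the Bcl2l1 stretch or at its other listed starts. No match overlapped another in the stretches printed. The other listed start of Bcl2l11 held 2 GC boxes and no FOXO site. Of the other genes, Mcl1 had 1 GC box and Bak1 had no match. The 3 listed starts of Bbc3 had 5, 1 and 7 GC boxes, with a FOXO site at the start with 1 and an E-box at the start with 7. A match describes letters and does not show binding, and no binding was measured here.

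The labels were checked before the comparisons. The CD8 T cell markers Cd8a, Cd8b1, Cd3d, Cd3e, Cd3g and Cd247 were above background in every group. The sex label was not borne out by the arrays. On all 15 arrays labelled TMem, Xist, which is transcribed from the inactive X chromosome of female cells, lay between 4.99 and 6.02, and the Y-linked gene Eif2s3y lay between 8.82 and 9.51. The TN alone arrays had Xist between 9.34 and 10.99 at 0 h and between 12.10 and 12.11 at 96 h, with Eif2s3y near background at both times. The other TN arrays (both cultures at 18 h, and the mix at 96 h) carried both, with Xist between 10.95 and 11.78 and Eif2s3y between 7.34 and 8.50. These levels therefore moved with every comparison of TMem with TN, with TN alone at 18 h against 0 h and against 96 h, and with mixing in TN cells at 96 h. With mixing in TN cells at 18 h both genes were present in both groups, with smaller shifts of their means that are given below. Within TMem cells they did not move in this way. In TN alone at 96 h against 0 h Xist moved and Eif2s3y did not leave the background. Their part in the results was not tested, and since every TMem array is affected no comparison of TMem with TN can be given without such arrays. Repeat 1 of TN alone at 0 h also stood apart from repeats 2 and 3 for several of the genes below. So did repeat 3 of TMem alone at 0 h from its repeats 1 and 2, as for Bcl2, Mcl1 and Bcl2l11.

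**Figure D1:**
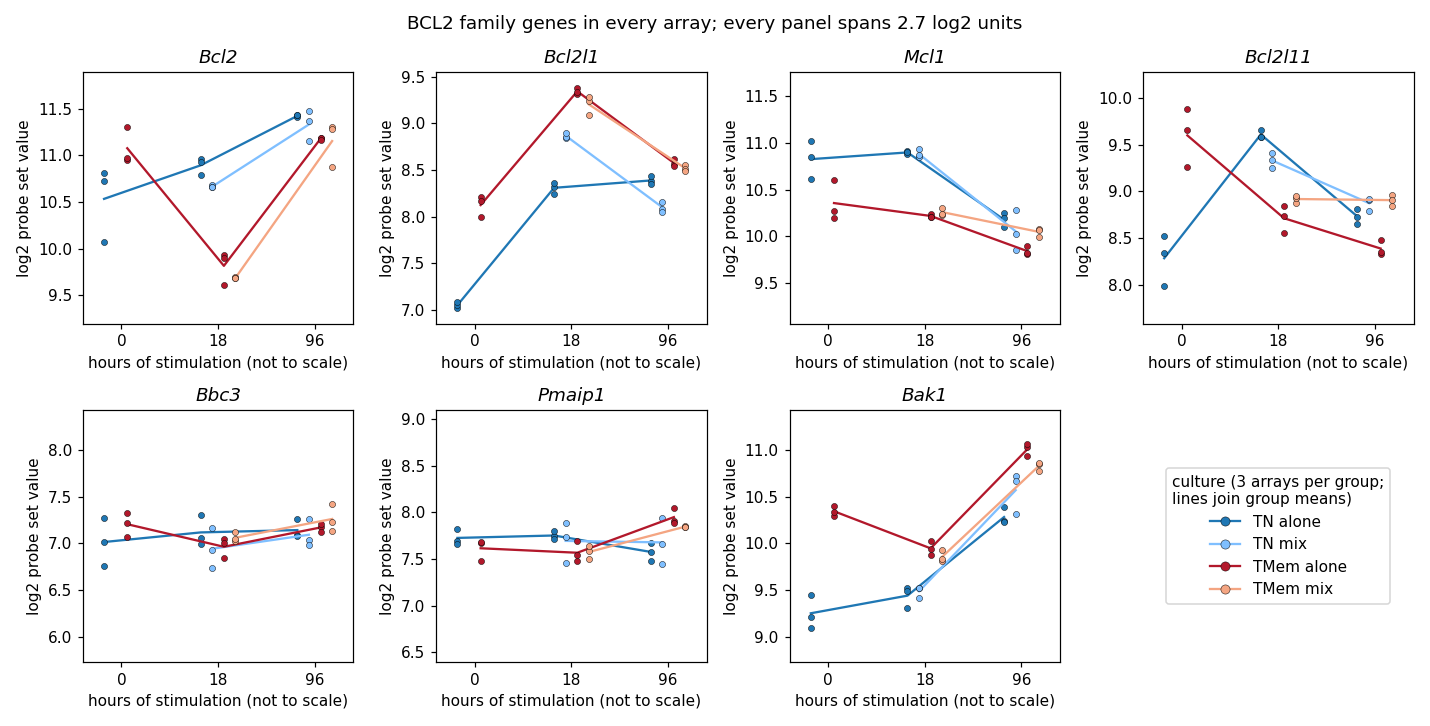
Log2 probe set values (y axis) of 7 BCL2 family genes at 0, 18 and 96 h (x axis, not to scale) in TN alone, TN mix, TMem alone and TMem mix. Points are arrays, 3 per group, and lines join group means. Bcl2 fell by 18 h in TMem alone and was high again at 96 h, Bcl2l1 was lowest in TN alone at 0 h, and Bbc3 and Pmaip1 spanned 0.32 and 0.38 between their group means.

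Over the 10 groups the 7 genes varied to very different degrees. The distance between the lowest and the highest group mean was 2.29 for Bcl2l1, 1.76 for Bak1, 1.74 for Bcl2, 1.33 for Bcl2l11 and 1.06 for Mcl1. It was 0.38 for Pmaip1 and 0.32 for Bbc3. Of the 45 possible pairs of groups, Bcl2l1 was called in 39, Bak1 in 36, Bcl2l11 in 31, Bcl2 in 29 and Mcl1 in 26, where the median gene was called in 9. Pmaip1 was called in 5 pairs and Bbc3 in 1.

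Bcl2, the source of the prosurvival protein BCL2, fell early in TMem cells and not in TN cells, and was high in every culture at 96 h. TN alone at 0 h had values of 10.07, 10.81 and 10.72, and TMem alone at 0 h had 10.95, 10.97 and 11.31. The TMem values all lay above the TN values. The difference was 0.54 (SE 0.14, adjusted p = 0.00249), but it was 0.31 (adjusted p = 0.0463) without repeat 1 of TN alone at 0 h, and was not called when only these 6 arrays were fitted (adjusted p = 0.0904). At 18 h TMem alone gave 9.94, 9.61 and 9.90 and TMem mix gave 9.69, 9.68 and 9.68. All 6 of these arrays lay under every other array of the series. TMem alone thus fell by 1.26 from 0 h to 18 h (SE 0.14, a fold of 2.4, adjusted p = 2.12e-08). TN alone at 18 h gave 10.79, 10.96 and 10.93, with a difference of 0.36 from 0 h (adjusted p = 0.0465) whose groups overlapped. That call was lost after centring arrays on their medians (adjusted p = 0.0754), after quantile normalization (adjusted p = 0.0619), without repeat 1 of TN alone at 0 h (difference 0.13, adjusted p = 0.503), and without any 1 of the TN alone arrays at 18 h. The response of TMem minus the response of TN was -1.62 (SE 0.20, adjusted p = 3.14e-07).

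By 96 h Bcl2 was high in all 4 cultures. TN alone gave 11.41, 11.43 and 11.43, TN mix 11.48, 11.15 and 11.37, TMem alone 11.19, 11.18 and 11.17, and TMem mix 11.30, 10.87 and 11.29. From 18 h to 96 h Bcl2 rose by 0.53 in TN alone (adjusted p = 0.00475), by 0.67 in TN mix, by 1.36 in TMem alone and by 1.47 in TMem mix (adjusted p = 1.91e-09), and in each of the 4 the arrays did not overlap. In the order of the groups, TMem mix and TMem alone at 18 h were lowest and did not differ from each other beyond their spread. The step from TMem alone at 18 h to TN alone at 0 h, of 0.72, was the only step between neighbours that was called without overlap (adjusted p = 8.65e-05). Mixing moved Bcl2 past the threshold in neither cell type, with differences of -0.23 (SE 0.14) and -0.09 in TN and -0.13 and -0.03 in TMem at 18 h and 96 h. The TN arrays at 18 h did not overlap, with TN mix under TN alone (adjusted p = 0.334 by limma).

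Bcl2l1, the source of BCL-XL, was the only gene of the 7 called with mixing in TN cells. A count of 1 of 7 is near the share of all genes called, which was 14.4% at 18 h and 10.6% at 96 h. TN alone at 0 h gave 7.02, 7.05 and 7.08, under every other array. At 18 h TN alone gave 8.32, 8.36 and 8.24, TN mix gave 8.84, 8.86 and 8.90, TMem alone gave 9.38, 9.31 and 9.33, and TMem mix gave 9.09, 9.24 and 9.29. The TN mix arrays at 18 h lay between all TN alone and all TMem arrays of that time. Bcl2l1 rose from 0 h to 18 h by 1.26 in TN alone (SE 0.07, a fold of 2.39, adjusted p = 2.83e-14) and by 1.22 in TMem alone (SE 0.07, adjusted p = 4.97e-14). The difference between these rises was -0.04 (SE 0.10, adjusted p = 0.833), a p that does not show the rises to be equal. TMem exceeded TN by 1.07 at 0 h and by 1.04 at 18 h in the alone cultures, and by 0.34 at 18 h in the mix (adjusted p = 5.11e-04), or by 0.22 after centring arrays on their medians (adjusted p = 0.0377).

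The mixing effect on Bcl2l1 in TN cells had opposite signs at the 2 times. At 18 h TN mix exceeded TN alone by 0.56 (SE 0.07, a fold of 1.47, adjusted p = 1.38e-06), and Bcl2l1 was the only gene of the 7 called, where 14.4% of all genes were called. Xist was lower and Eif2s3y higher in TN mix than in TN alone, each towards its TMem level. The means were 10.97 and 8.36 in TN mix and 11.27 and 8.14 in TN alone, and the part of this shift was not tested. Markers of memory or effector CD8 T cells had a summed level (log2 of the sum of their linear values) of 13.64 to 13.68 in TN mix and 12.94 to 13.04 in TN alone, and their part in the result was not tested. At 96 h TN alone gave 8.38, 8.43 and 8.35 and TN mix gave 8.09, 8.16 and 8.05. TN mix was thus lower by 0.29 (difference -0.29, SE 0.07, adjusted p = 0.00552), again the only gene of the 7 called, against 10.6% of all genes. With only these 6 arrays in the fit the call was lost (adjusted p = 0.0697). The effect at 96 h minus that at 18 h was -0.85 (SE 0.10, adjusted p = 6.79e-07), and Bcl2l1 was the only one of the 7 called, against 12.4% of all genes.

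The same comparison in TMem cells gave Bcl2l1 differences of -0.14 (SE 0.07, adjusted p = 1) at 18 h and -0.06 (SE 0.07, adjusted p = 0.999) at 96 h. At 18 h the mixing effect in TN minus that in TMem was 0.70 (SE 0.10, adjusted p = 2.62e-05), and Bcl2l1 was the only one of the 7 called, against 5.17% of all genes. The mixing effect in TMem at 96 h minus that at 18 h called none of the 7 by limma, where 0.196% of all genes were called, and none had an unadjusted p under 0.05. At 96 h the mixing effect on Bcl2l1 in TN minus that in TMem was -0.23 (SE 0.10, adjusted p = 0.267), and none of the 7 was called by limma, against 3.54% of all genes, while 4 had an unadjusted p under 0.05 (Bcl2l1, Mcl1, Bcl2l11 and Bak1). From 18 h to 96 h Bcl2l1 fell by 0.77 in TN mix (adjusted p = 5.15e-10), by 0.77 in TMem alone and by 0.69 in TMem mix. In TN alone the difference was 0.08 (SE 0.07, adjusted p = 0.527). In the order of its groups 4 of the 9 steps between neighbours were called without overlap, the largest of them the step of 1.05 from TN alone at 0 h to TN mix at 96 h.

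Mcl1, whose protein is short-lived and binds both BAK and NOXA, separated the cell types at 18 h and fell with time. At 0 h TN alone gave 10.61, 11.02 and 10.85 and TMem alone gave 10.27, 10.20 and 10.60. The TN arrays lay just above the TMem arrays, the nearest pair being 10.61 and 10.60. TMem was lower by 0.47 (difference -0.47, SE 0.10, adjusted p = 4.35e-04), a call lost when only these 6 arrays were fitted (adjusted p = 0.0622). At 18 h TN alone gave 10.88, 10.91 and 10.91, TN mix 10.93, 10.84 and 10.87, TMem alone 10.24, 10.21 and 10.20, and TMem mix 10.31, 10.22 and 10.24. No TN array at 18 h came near a TMem array. TMem minus TN was -0.68 in the alone cultures (SE 0.10, adjusted p = 4.32e-06) and -0.62 in the mix (adjusted p = 2.73e-05). The Mcl1 differences from 0 h to 18 h were 0.07 in TN alone and -0.14 in TMem alone (SE 0.10 for each), neither called by limma. The latter was -0.27 and called after quantile normalization (adjusted p = 0.0257, against up to 0.909 under other alternatives).

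At 96 h Mcl1 gave 10.25, 10.10 and 10.19 in TN alone, 9.85, 10.28 and 10.03 in TN mix, 9.89, 9.80 and 9.82 in TMem alone, and 10.08, 10.07 and 9.99 in TMem mix. It fell from 18 h by 0.72 in TN alone (adjusted p = 2.55e-06), by 0.83 in TN mix (adjusted p = 1.59e-07) and by 0.38 in TMem alone (adjusted p = 0.00595). The TMem mix difference of -0.21 did not pass (adjusted p = 0.14), and passed when the 0 h arrays were left out of the fit (adjusted p = 0.0386, and 0.016 to 0.312 over all alternatives). TMem alone minus TN alone was -0.34 at 96 h (adjusted p = 0.0154). That call was lost without repeat 1 of TN alone at 96 h (adjusted p = 0.072) or without repeat 2 of TMem alone at 96 h (adjusted p = 0.0578). Mixing gave Mcl1 differences between -0.12 and 0.21, none of them called.

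Bcl2l11, the source of the BH3-only protein BIM, changed from 0 h to 18 h in opposite directions in the alone cultures of the 2 cell types. Eif2s3y in TN alone, and mast cell, red cell and platelet markers in TMem alone, also moved over this time. Their part was not tested. TN alone at 0 h gave 7.98, 8.53 and 8.34, and TMem alone at 0 h gave 9.88, 9.66 and 9.26. The groups lay well apart, and TMem was higher by 1.32 (SE 0.12, a fold of 2.49, adjusted p = 5.83e-10). At 18 h TN alone gave 9.59, 9.58 and 9.66 and TMem alone gave 8.74, 8.56 and 8.85, so that the order of the cell types had turned. Bcl2l11 rose by 1.33 in TN alone (SE 0.12, a fold of 2.51, adjusted p = 6.22e-10) and fell by 0.89 in TMem alone (SE 0.12, adjusted p = 6.54e-07). The response of TMem minus the response of TN was -2.21 (SE 0.17, adjusted p = 8.26e-11). At 18 h TN mix gave 9.41, 9.33 and 9.25 and TMem mix 8.88, 8.93 and 8.95, a smaller distance between the cell types of -0.41 (SE 0.12, adjusted p = 0.0131) than the -0.90 of the alone cultures. Without repeat 1 of TN mix at 18 h the former was not called (adjusted p = 0.0531). The difference between these 2 distances is the difference of the mixing effects in TN and TMem, -0.49 (SE 0.17), and did not pass (adjusted p = 0.103). It passed when the 0 h arrays were left out of the fit (adjusted p = 0.00327, and 0.00327 to 0.27 over all alternatives).

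Mixing moved Bcl2l11 past the threshold in TMem cells at 96 h. TMem alone gave 8.33, 8.48 and 8.35 there and TMem mix gave 8.97, 8.84 and 8.91. The arrays did not overlap, and the difference was 0.52 (SE 0.12, a fold of 1.43, adjusted p = 0.0223). Bcl2l11 was the only gene of the 7 called in this comparison, where 1.12% of all genes were called. The call was lost when any 1 of 5 of the 6 arrays was left out, that is each except repeat 2 of TMem alone, with differences of 0.49 to 0.55 and adjusted p between 0.0556 and 0.134. At 18 h the difference in TMem was 0.21 (SE 0.12), and none of the 7 was called in that comparison by limma, where 0.0301% of all genes were, and none had an unadjusted p under 0.05. In TN cells mixing gave -0.28 at 18 h (SE 0.12, adjusted p = 0.13) and 0.14 at 96 h (adjusted p = 0.533). The 18 h value had arrays that did not overlap and passed when the 0 h arrays were left out (adjusted p = 0.00809) or only the 6 arrays were fitted (adjusted p = 0.0373), and its adjusted p ran from 0.00776 to 0.312 over all alternatives.

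TN alone at 96 h gave Bcl2l11 values of 8.66, 8.81 and 8.72 and TN mix gave 8.91, 8.92 and 8.79. From 18 h to 96 h Bcl2l11 fell by 0.88 in TN alone (adjusted p = 1.39e-06), by 0.46 in TN mix (adjusted p = 0.00333) and by 0.33 in TMem alone (adjusted p = 0.0474). The last call was lost without any 1 of 5 of its 6 arrays (adjusted p up to 0.208), all but repeat 2 of TMem alone at 18 h. TMem mix differed by -0.01 (SE 0.12, adjusted p = 0.965). TN alone at 96 h was 0.45 above 0 h (adjusted p = 0.00345), or 0.30 without repeat 1 of TN alone at 0 h (adjusted p = 0.051). TMem alone ended 1.21 under its 0 h level (difference -1.21, adjusted p = 9.44e-09). TMem alone minus TN alone at 96 h was -0.34 (adjusted p = 0.0384), a call lost without any 1 of 5 of the 6 arrays (adjusted p up to 0.133), all but repeat 2 of TMem alone.

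The other BH3-only genes, Bbc3 and Pmaip1, varied little. PUMA and NOXA are known as products of p53 targets. Bbc3 gave values between 6.74 and 7.42 over all 30 arrays, and its 10 groups overlapped along the whole order. It was called in none of the 17 comparisons of 2 groups by limma, and none of them had an unadjusted p under 0.05. The largest Bbc3 difference among them, -0.24 for TMem alone from 0 h to 18 h, had an unadjusted p of 0.0523. Without repeat 1 of TN alone at 0 h, TMem exceeded TN in Bbc3 by 0.32 at 0 h (adjusted p = 0.0421), against 0.19 with it (adjusted p = 0.244), and the difference ran from 0.06 to 0.32 over all alternatives. Pmaip1 lay between 7.44 and 8.05. Its highest group mean was that of TMem alone at 96 h, with arrays of 8.05, 7.90 and 7.89, against 7.58, 7.47 and 7.67 in TN alone at 96 h. Pmaip1 rose in TMem alone by 0.38 from 18 h to 96 h (SE 0.11, adjusted p = 0.00736) and was 0.37 above TN alone at 96 h (adjusted p = 0.00993). The latter call was lost without repeat 2 of TN alone at 96 h (adjusted p = 0.0573) or repeat 1 of TMem alone at 96 h (adjusted p = 0.0615). TMem alone at 96 h was also 0.33 above 0 h (adjusted p = 0.0198), a call lost without repeat 3 of TMem alone at 0 h (adjusted p = 0.103) or repeat 1 of TMem alone at 96 h (adjusted p = 0.101).

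Bak1, the source of the effector BAK, was higher in TMem than in TN before stimulation and rose late in every culture. TN alone at 0 h gave 9.45, 9.10 and 9.21 and TMem alone gave 10.41, 10.29 and 10.34. The groups did not overlap and differed by 1.09 (SE 0.10, a fold of 2.13, adjusted p = 3.36e-10). At 18 h TN alone gave 9.31, 9.53 and 9.49, TN mix 9.52, 9.53 and 9.41, TMem alone 9.88, 10.03 and 9.94, and TMem mix 9.81, 9.84 and 9.93. All TMem arrays of this time still lay above all TN arrays, by 0.51 in the alone cultures (adjusted p = 1.30e-04) and by 0.37 in the mix (adjusted p = 0.00563). The latter was 0.25 and not called after centring arrays on their medians (adjusted p = 0.0734). Bak1 fell by 0.40 in TMem alone from 0 h to 18 h (adjusted p = 0.00152), where TN alone differed by 0.19 (adjusted p = 0.146). The TN value was 0.29 and called without repeat 1 of TN alone at 0 h (adjusted p = 0.0267), and ran from 0.10 to 0.29 over all alternatives. The response of TMem minus that of TN was -0.59 (SE 0.14, adjusted p = 0.00154).

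From 18 h to 96 h Bak1 rose by 0.84 in TN alone, by 1.08 in TN mix, by 1.06 in TMem alone and by 0.97 in TMem mix, with adjusted p between 4.18e-10 and 7.31e-08. At 96 h the arrays gave 10.24, 10.39 and 10.22 in TN alone, 10.73, 10.67 and 10.31 in TN mix, 10.93, 11.03 and 11.06 in TMem alone, and 10.85, 10.86 and 10.78 in TMem mix. TMem alone exceeded TN alone by 0.73 (adjusted p = 1.19e-06), and TMem mix exceeded TN mix by 0.26 (adjusted p = 0.0903), which passed without repeat 1 of TN mix at 96 h (adjusted p = 0.0399) and ran from 0.13 to 0.46 over all alternatives. TN mix was 0.29 above TN alone (SE 0.10, adjusted p = 0.0552) with overlapping groups, and repeat 3 of TN mix was the low array. Without that array the difference was 0.42 (adjusted p = 0.00426), and with array weights it was 0.10 (adjusted p = 0.286). The mixing effect on Bak1 in TN minus that in TMem at 96 h was 0.47 (SE 0.14, adjusted p = 0.0559). It passed without repeat 3 of TN mix (adjusted p = 0.00553) or repeat 2 of TN alone (adjusted p = 0.0497) at 96 h, and ran from 0.28 to 0.60 over all alternatives.

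**Figure D2:**
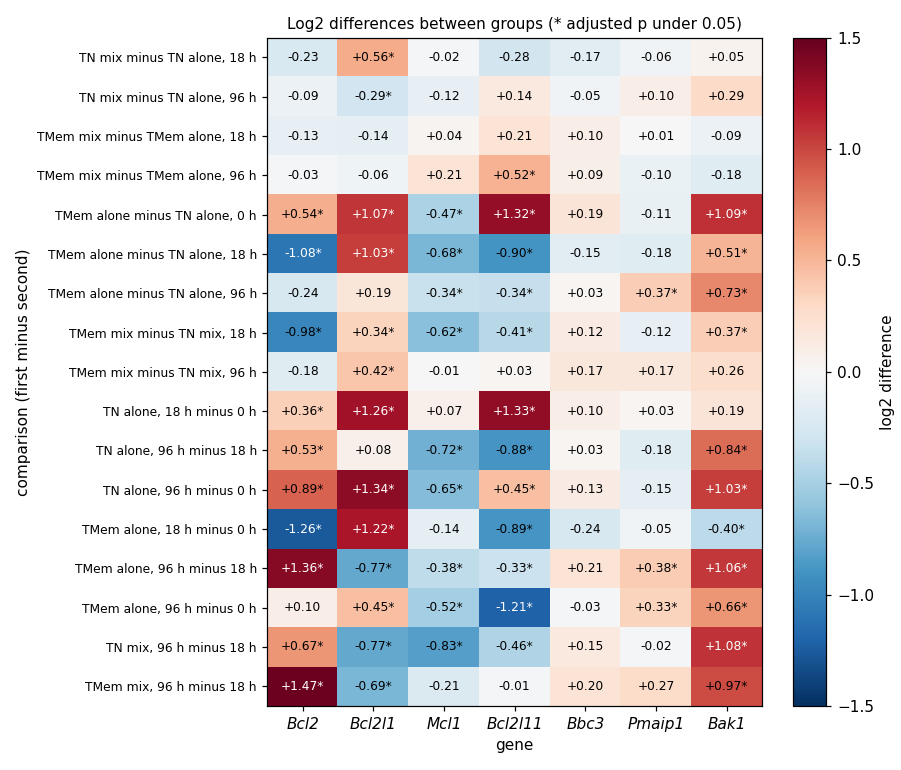
Log2 differences (numbers and colour) of the 7 genes (x axis) in the 17 comparisons of 2 groups (y axis, first minus second), with a star at an adjusted p under 0.05. The rows that compare mix with alone hold 3 stars, 2 of them for Bcl2l1 in TN cells and 1 for Bcl2l11 in TMem cells at 96 h.

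Counted over the 7 genes, TMem against TN at 0 h called 5, with Bcl2, Bcl2l1, Bcl2l11 and Bak1 higher and Mcl1 lower, where 35.9% of all genes were called. The median difference of the 7 was 0.54 and that of all genes 0.02. At 18 h TMem against TN called 5 in the alone cultures (28.9% of all genes) and 5 in the mix (20.4%), in both with Bcl2l1 and Bak1 higher and Bcl2, Mcl1 and Bcl2l11 lower. At 96 h the counts were 4 in the alone cultures (22.2% of all genes) and 1 in the mix (10.6%), the latter Bcl2l1, higher in TMem by 0.42 (adjusted p = 8.38e-05). Markers of mast cells and basophils, summed over 5 genes of which 1 was near background in TMem alone and 2 in TN alone, were at 9.41 to 10.58 in TMem alone and 8.05 to 8.31 in TN alone at 0 h. Markers of red cells and platelets, 3 genes with none near background, were at 9.10 to 9.58 and 7.83 to 8.15. In TMem alone at 18 h both were lower, at 7.95 to 8.05 (2 of 5 near background) and 7.54 to 7.63 (1 of 3), so they also moved with the TMem change from 0 h to 18 h and with the difference between the responses. In TN alone the summed B cell markers, 5 genes with 2 near background, went from 9.83 to 10.05 at 0 h to 8.74 to 8.83 at 18 h. The part of these markers in the results was not tested.

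The change from 0 h to 18 h called 3 of the 7 in TN alone (33.8% of all genes) and 4 in TMem alone (35.3%). The difference between the responses called 3 (28.9%), namely Bcl2, Bcl2l11 and Bak1. All 3 of these were more negative in TMem. These comparisons share their 0 h and 18 h arrays. From 18 h to 96 h the counts were 4 in TN alone (24.4% of all genes), 5 in TN mix (37.1%), 6 in TMem alone (24.4%) and 3 in TMem mix (27.6%). From 0 h to 96 h 5 were called in TN alone (36.4%) and 5 in TMem alone (24.5%). In TN alone over this whole time Bcl2 was higher by 0.89, Bcl2l1 by 1.34, Bcl2l11 by 0.45 and Bak1 by 1.03, and Mcl1 was lower by 0.65 (difference -0.65, adjusted p = 6.52e-06).

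At 96 h TN alone and TN mix also differed in markers of other cells. Lyz2, which marks myeloid cells, had a mean of 8.26 in TN alone and 5.47, near background, in TN mix. The 8 myeloid markers summed to 9.46 to 9.54 in TN alone (2 near background) and 8.74 to 8.95 in TN mix (3 near background). The 5 mast cell and basophil markers summed to 9.60 to 9.83 and 8.22 to 8.64 (2 near background in each). The 3 NK cell markers summed to 8.01 to 8.06 (1 near background) and 6.79 to 6.95 (3 near background). The 3 CD4 T cell markers Cd4, Foxp3 and Zbtb7b summed to 9.23 to 9.35 and 8.46 to 8.66 (none near background). Among them Foxp3, which marks regulatory CD4 T cells, had means of 8.79 and 7.30. The difference of the sums can rest on Foxp3 and does not show that Cd4 and Zbtb7b moved. The same markers moved with time in TN alone, which at 18 h had 8.04 to 8.10 for mast cells and basophils (3 near background), 6.75 to 6.92 for NK cells (3 near background), and 8.74 to 8.83 for B cells, against 9.88 to 10.01 for B cells at 96 h. The 3 CD4 T cell markers, none near background, went from 8.26 to 8.32 at 18 h to 9.23 to 9.35 at 96 h. In TMem alone at 96 h these lists were at 8.36 to 8.46 (mast cells and basophils), 7.66 to 7.74 (NK cells), 8.65 to 8.73 (B cells) and 8.62 to 8.74 (CD4 T cells), each under TN alone. The part of these markers in the lower Bcl2l1 of TN mix at 96 h, in the changes of TN alone over time and in TMem alone against TN alone at 96 h was not tested. At 18 h the myeloid markers were at 8.78 to 8.88 in TN alone and 8.72 to 8.85 in TN mix, and the 3 NK cell markers were near background in both.

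The balance between members, opposing or both prosurvival, was followed as the difference between 2 genes of the same array. Such a difference does not move with the scaling of an array. Its zero has no meaning, and only changes between groups are read. The exact permutation test of 3 against 3 arrays, 2-sided, cannot go below p = 0.1, which is the p of every pair of groups that did not overlap here, and 0.131 after adjustment over the 68 such tests. Bcl2 minus Bcl2l11 was 2.25 ± 0.15 (SD, n = 3) in TN alone at 0 h, 1.28 ± 0.09 at 18 h and 2.69 ± 0.07 at 96 h. In TMem alone it was 1.48 ± 0.51, 1.10 ± 0.08 and 2.79 ± 0.08. It was thus lowest at 18 h in both, and the TMem groups at 0 h and 18 h overlapped. With mixing it fell by 0.33 at 18 h and by 0.54 at 96 h in TMem, with arrays that did not overlap (exact permutation p = 0.1 for each). In TN it also fell with mixing at 96 h (difference -0.24), without overlap (exact permutation p = 0.1). At 18 h the TN difference was 0.05 and the arrays overlapped.

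Bcl2 minus Bcl2l1, a pair in which both genes are prosurvival, was 3.48 ± 0.38 (SD, n = 3) in TN alone at 0 h and 2.59 ± 0.11 at 18 h. In TMem alone it dropped from 2.95 ± 0.32 to 0.47 ± 0.15 and was 2.60 ± 0.05 at 96 h. TN mix at 18 h, at 1.80 ± 0.04, lay between TN alone and both TMem groups of that time without overlap. Bcl2l1 minus Bcl2l11 was -1.30 ± 0.11 in TN alone, -0.46 ± 0.11 in TN mix, 0.63 ± 0.14 in TMem alone and 0.28 ± 0.07 in TMem mix at 18 h. Mixing raised it by 0.84 in TN and lowered it in TMem (difference -0.35), again with p = 0.1 by the exact permutation test. At 96 h mixing lowered it in both (differences of -0.43 in TN and -0.58 in TMem). Mcl1 minus Pmaip1 was 3.10 ± 0.23 in TN alone at 0 h and 2.60 ± 0.08 at 96 h, and 2.74 ± 0.33 and 1.89 ± 0.05 in TMem alone.

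**Figure D3:**
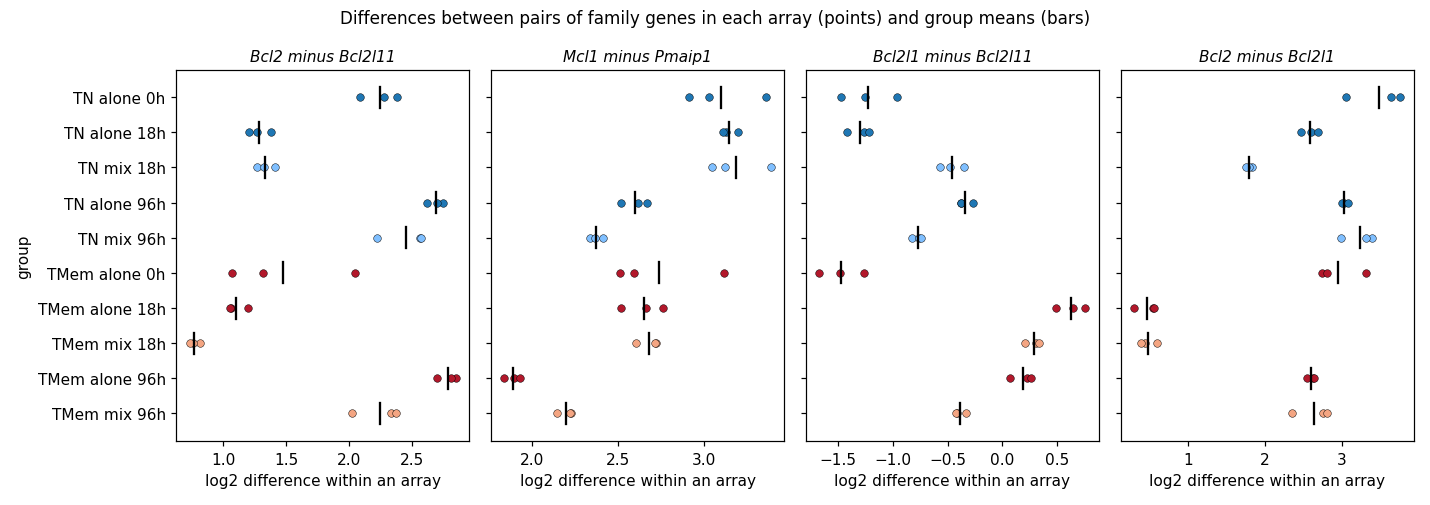
Log2 difference between 2 genes within an array (x axis) for 4 pairs of BCL2 family genes in the 10 groups (y axis). Points are arrays, 3 per group, and black bars are group means. Bcl2 minus Bcl2l1 was lowest in the 2 TMem groups at 18 h, with means of 0.47 and 0.48.

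Genes with the most similar pattern over the 10 group means were found among those whose group means spanned at least 1. Correlations are given as a description, and the groups share the same scaling and the same few cell sources. For Bcl2 these were Lgals3bp (r = 0.986), Pik3cd (0.956), the catalytic subunit of phosphoinositide 3-kinase delta, and Eif4e3 (0.954). Bcl2l1 was followed most closely by Csnk2a2 (0.981), Tnfrsf10b (0.977), a death receptor gene, and Cdk8 (0.976), and 265 genes reached at least 0.9. The closest to Mcl1 were Zdhhc17 (0.964), Pcsk1 (0.963) and Tasor (0.960). Bcl2l11 had only Map3k5 (0.911) at 0.9 or more, followed by Ikzf3 (0.874) and Nfatc1 (0.841), while 283 genes reached this value for Bak1, led by Zfand4, Lrrc49 and Pilrb1. For the nearly flat Bbc3 and Pmaip1 the closest genes were Gpr137b (0.941) and Slc27a1 (0.881), whose correlations over the 30 single arrays were only 0.552 and 0.714. Among the members themselves the strongest value was between Mcl1 and Bak1 (r = -0.919, n = 10 groups), and no other pair went beyond 0.71 in size. From 18 h to 96 h the Mcl1 mean was lower and the Bak1 mean higher in each culture, though Mcl1 in TMem mix was not called. TMem also had lower Mcl1 and higher Bak1 than TN at 0 h and at 18 h.

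Of the other BCL2 family genes 14 of 17 listed had a row of their own, and rows shared by the Bcl2a1 copies were left out. Bid, a BH3-only gene whose protein is cut by caspase 8, was 8.83, 8.92 and 8.80 in TN alone and 9.26, 9.12 and 9.28 in TN mix at 18 h, a difference of 0.37 (SE 0.10, adjusted p = 0.00751). Bnip3 and Bnip3l, known for mitophagy and as targets of the hypoxia factor HIF1, are distant relatives. Bnip3 was 8.35, 8.55 and 8.47 in TN alone and 11.36, 11.66 and 11.40 in TN mix at 96 h, a difference of 3.02 (SE 0.22, a fold of 8.11, adjusted p = 8.99e-11). The TMem groups of that time lay between 11.92 and 12.16. Bnip3l was lower with mixing in TN at 18 h (difference -0.50) and higher at 96 h (difference 0.70), and was the only one of the 14 called in TMem (0.44 at 96 h, adjusted p = 4.47e-04). In TN, mixing called 2 of the 14 at 18 h, where 14.4% of all genes were called, and 4 at 96 h, where 10.6% were. Bad, Bik, Bmf, Hrk and Bok, a further set of BH3-only and effector genes, were not called by limma in any comparison of mix with alone, and of these values only Bmf in TN cells at 18 h had an unadjusted p under 0.05 (difference -0.32, adjusted p = 0.0544).

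Genes that act on the family or below it were counted from lists chosen by function. With mixing in TN cells at 18 h, 10 of 11 measured FOXO factors and targets were lower and none higher, where 8.15% of all genes were lower, with a median of -0.68 against -0.01 for all genes. FOXO factors are known to drive transcription of Bcl2l11 and of genes of resting T cells. Their part in the Bcl2l11 values was not tested in any comparison. S1pr1, which lets T cells leave lymphoid tissue, differed by -1.20 (adjusted p = 1.14e-10), Cdkn1b, a cell cycle inhibitor, by -1.01, Txnip by -0.995 and Il6ra by -1.29. Of 11 cytokine receptor and STAT5 pathway genes 6 were called, 3 in each direction. Il7r, the receptor of the cytokine that maintains Bcl2 in resting T cells, was lower by 1.61 (difference -1.61, SE 0.16, adjusted p = 4.19e-08), Jak1 differed by -0.60, and Cish, a target of STAT5, by 0.55, with Stat5a at 0.40. Of 10 NF-kB factors and targets, a pathway known to induce Bcl2l1, 2 were higher, namely Icam1 (0.60) and Nfkbia (0.42). That count is near the 14.4% of all genes called in this comparison, and the part of the pathway in Bcl2l1 was not tested.

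Downstream of the family, 7 of 14 apoptosome and caspase genes were called in TN mix at 18 h, 6 of them higher. Vdac1 and Vdac2, channels of the outer mitochondrial membrane, differed by 0.47 and 0.48, Dffa by 0.30 and Vdac3 by 0.57, and the 1 gene that was lower, Casp9, the caspase of the apoptosome, by -0.36 (Casp9 was named after its value was seen). All list counts of this comparison stand beside the 14.4% of all genes called in it, and those of 2 of 10, 1 of 7 and 2 of 8 below are near it or rest on few genes. Among p53 and its targets 4 of 14 were called, 3 higher (Tnfrsf10b 0.52, Phlda3 0.56, Ccng1 0.32) and Trp53inp1 lower (difference -0.22). The genes for MCL1 turnover and BH3 kinases had 2 of 10 called, Dynll1 (0.35) and Dynll2 (0.37), whose proteins tether BIM and BMF to motor complexes. Of 7 inhibitors of apoptosis Birc3 was called (0.26), and of 8 genes of the ER stress response Atf3 (0.59) and Atf4 (0.26).

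At 96 h the list of the ER stress response had all 8 genes called for TN mix set against TN alone, 6 higher and 2 lower, where 10.6% of all genes were called. Atf3 differed by 1.61 (adjusted p = 1.15e-08), Chac1 by 1.16, Ppp1r15a by 0.71 and Atf4 by 0.51. The 2 lower genes, named after their values were seen, were Xbp1 (-0.415) and Ern1 (-0.584), so the list did not move in 1 direction. FOXO factors and targets then had 6 of 11 called, 4 lower (S1pr1 -1.15, Il6ra -1.21 and Klf2 -0.68 among them) and 2 higher (Trib3 0.69 among them), although the median of the 11 was 0.18, against 0.05 for all genes. p53 targets had 4 of 14 called, all lower, with Phlda3 at -0.94 and Zmat3 at -0.84, and Diablo, an antagonist of inhibitor of apoptosis proteins, was the only apoptosome gene called (-0.71). Over the same time course NF-kB factors and targets were lower at 96 h than at 18 h for 9 of 10 genes in TN alone, 10 in TN mix, 10 in TMem alone and 9 in TMem mix, and none was higher. Of all genes, 13.1%, 16.5%, 9.87% and 11.5% were lower in these comparisons.

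**Figure D4:**
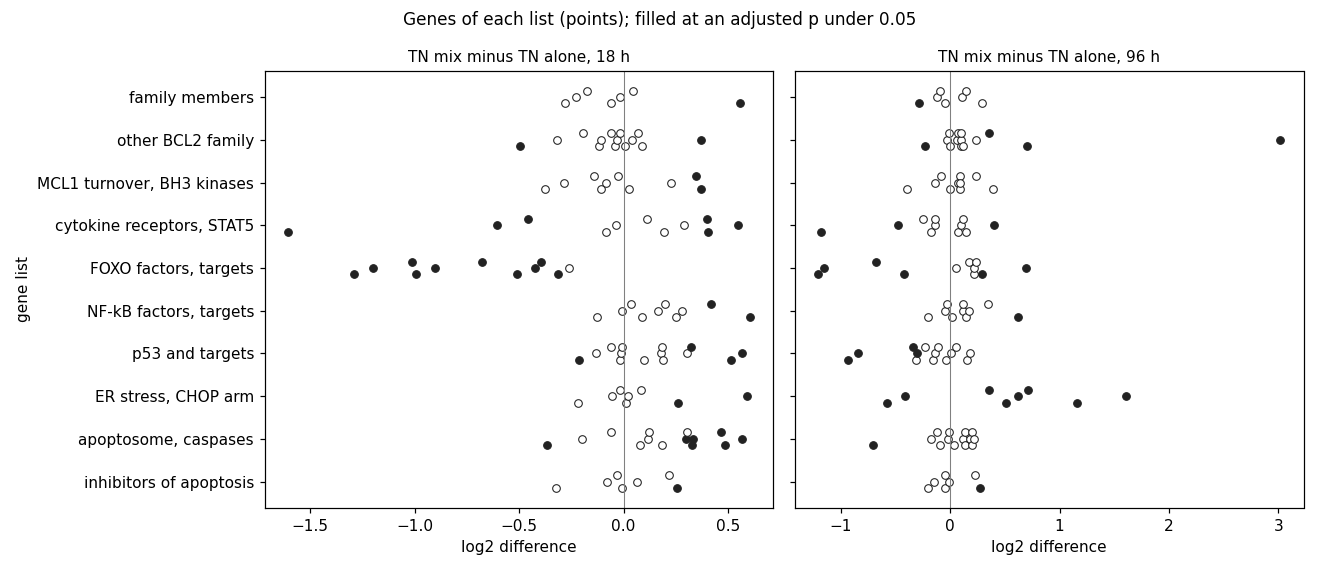
Log2 differences (x axis) of TN mix minus TN alone at 18 h and 96 h for the genes of each list (y axis). Points are genes, filled at an adjusted p under 0.05, and their vertical offsets within a list only separate them. At 18 h the FOXO list had 10 filled points, all under 0, and the family members 1.

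In TMem cells mixing called none of the 85 genes of these lists at 18 h by limma, where 5 had an unadjusted p under 0.05, and few at 96 h, where 1.12% of all genes were called. There 4 of 11 FOXO factors and targets were higher, namely Txnip (0.80, adjusted p = 2.83e-05), S1pr1 (0.54), Cdkn1b (0.39) and Foxo3 (0.31). Casp6 (0.42) and Trp53inp1 (0.47) were the other genes of these lists called. Before stimulation, TMem against TN called 35.9% of all genes. Of 11 cytokine receptor and STAT5 genes 8 were called, with Il2ra higher by 4.42 and Il7r lower (difference -1.62). All 7 inhibitors of apoptosis were called, 4 higher, led by the mitotic gene Birc5 (3.24). Among those higher, Naip5 was near background in TN alone, and Naip5 and Xiap had overlapping groups (both were named after their values were seen). FOXO factors and targets were lower for 6 of 11 and higher for 1, and Apaf1, the scaffold of the apoptosome, was higher by 1.52 (adjusted p = 1.58e-13).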

How the data were processed

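Expression of mouse CD8 T cells was measured on 30 single-colour gene arrays. The authors deposited log2 probe set values, and RMA and Partek are named in the submitters' processing notes, with versions and background settings not given in the sources used here. The values ran from 2.05 to 14.16 and array medians from 6.76 to 6.94, and they were used as deposited. The number of arrays limits the precision. A probe set named a gene only where it carried 1 symbol, and of several rows of a gene the one with the highest mean was kept.

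One linear model over the 10 groups was fitted with limma 3.58.1 in R 4.3.3 (lmFit and eBayes) to 19938 genes, and p-values were adjusted by Benjamini-Hochberg within each comparison. Differences between effects were contrasts of the same fit. The script was tested on simulated data. The p-values measure the spread between repeats described as biological. The members, the lists and the motifs were chosen with earlier results of these data known. Up to 4 genes of a list were named, those with the smallest adjusted p where mix was set against alone, or TMem against TN at 0 h, and up to 3 genes of similar pattern for each member.

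Repeat numbers come from the sample titles. Deviations from the group means of same-numbered arrays correlated above 0.1 for every number only in TN mix against TN alone at 96 h (r = 0.489, 0.312 and 0.137), and there the block changed no call of a member. Alternatives were array centring, quantile normalization, a filter on dim genes, array weights, a trended and robust prior, only the groups compared, the mean of a gene's rows, the repeat as a block, each array left out, and, chosen after seeing the data, the 0 h arrays left out. Figures were drawn with matplotlib 3.10.9.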

Additional observations from a re-analysis of the deposited data

Results flagged for a closer look

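In 5 results a test of the difference between effects passed the threshold. From 0 h to 18 h in the alone cultures the response of TMem minus that of TN was -1.62 for Bcl2 (SE 0.20, adjusted p = 3.14e-07), -2.21 for Bcl2l11 (SE 0.17, adjusted p = 8.26e-11) and -0.59 for Bak1 (SE 0.14, adjusted p = 0.00154), by limma. For Bcl2l1 the mixing effect in TN cells at 96 h minus that at 18 h was -0.85 (SE 0.10, adjusted p = 6.79e-07). The mixing effect on Bcl2l1 at 18 h in TN minus that in TMem was 0.70 (SE 0.10, adjusted p = 2.62e-05). The levels of Xist and Eif2s3y differ between the groups of the first 4 of these results. In the last they differ between TN and TMem, with smaller shifts between TN mix and TN alone. Their part was not tested. Groups of 3 arrays were too small for a test of single outlying arrays.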

How the results depend on the processing

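Of 154 member results, 119 kept their call under every alternative run, of which 89 also kept their sign, and 50 of 63 calls held throughout. Among 2478 alternative values no called value reversed, and 68 values that were not called changed sign. Counts of the 7 genes that moved by more than 1.5 times are given here, and a further 19 counts moved by no more than that in the other alternatives. With array weights they were 2 in place of 1 for mixing in TN cells at 18 h, for TMem mix against TN mix at 96 h, the mixing effect in TN at 96 h minus 18 h and the mixing effect in TN minus TMem at 18 h, 5 in place of 3 for TMem mix at 96 h against 18 h, and 3 in place of 0 for the mixing effect in TN minus TMem at 96 h. With only the groups compared, they were 2 for mixing in TN cells at 18 h and for both mixing differences reported as 1, 0 in place of 1 for mixing in TN cells at 96 h, 3 in place of 5 for TMem against TN at 0 h, and 5 for TMem mix over time. Without the 0 h arrays they were 2 for mixing in TN cells at both times and for all 3 of these mixing differences. The filter on dim genes and the trended prior each gave 2 for mixing in TN cells at 96 h and 1 for the mixing effect in TN minus TMem at 96 h. Leaving out each array gave 1 to 2 for mixing in TN cells and for TMem mix against TN mix at 96 h, 0 to 1 for TMem mix against TMem alone at 96 h and for the mixing effect in TN minus TMem at 96 h, and 2 to 3 in place of 4 for TMem against TN alone at 96 h. The cause was not tested, beyond fewer arrays in the fit.

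With the repeat number as a block, there were 62 member calls in place of 63, and 1 count changed, TMem alone at 96 h against 18 h, from 6 to 5, where Bcl2l11 had an adjusted p of 0.0574. In mixing in TN cells at 96 h, where the pairing held, Bcl2l1 was -0.29 with the block (adjusted p = 0.00841). The difference before centring arrays less that after it was the same for every gene, and was over 0.1 in size in 5 comparisons. It was 0.10 in TMem against TN at 0 h, 0.12 in TMem mix against TN mix at 18 h and 0.20 in TN mix over time. It was 0.13 in the mixing effect in TN over time and -0.10 in that of TN minus TMem at 18 h. Centring thus lowered the differences in all of these but the last, where it raised them. Of the 680 alternative values of gene pairs 4 moved by 1 SD or more, all under quantile normalization. All 7 genes passed the filter on dim genes, but the group means of Bbc3, 6.94 to 7.26, lie near its bound of 6.88, and signal over background is unknown here.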
